A study of Mus musculus with 4 samples.

Results

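The cornified envelope is the protein shell that replaces the membrane of a keratinocyte in its last steps, and with the lipids bound to it forms the barrier of the skin. The genes described here were every row of the deposited table whose symbol began with Lce or Sprr and a digit, which gave 18 Lce genes and 13 Sprr genes, and 23 of 24 barrier genes named singly. That made 54 members among 22222 gene rows. Flg, which encodes filaggrin, was the one named gene without a row and was not analysed here. The members were chosen by symbol and not by their level.

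The libraries were RNA-seq of mouse skin tumour cells. Mice received 20 weeks of DMBA, a carcinogenic polycyclic hydrocarbon, and developed keratoacanthomas, keratinocyte tumours known to regress spontaneously. Tumours were taken from 2 mice still on DMBA (0 weeks after it) and from 2 other mice kept for 1 week without it. Cells were sorted as Tomato+ and P-cadherin+ and are labelled as epithelial, and both groups shared this gate. The labels do not state the strain or age of the mice or what drives Tomato. By its title the series is about spontaneous regression of tumours, and the comparison sets tumour cells during carcinogen exposure against cells 1 week after its end.

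In normal epidermis, basal cells that leave the basement membrane switch on spinous and then granular genes. Granular cells make envelope precursors such as involucrin, loricrin, small proline-rich (Sprr) and late cornified envelope (Lce) proteins, and transglutaminases crosslink them. Filaggrin-like proteins bundle keratin, lipoxygenases process the lipids that coat the envelope, and kallikreins cut the junctions that hold dead cells together.

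The libraries held 9678682 and 5635945 reads on DMBA (replicates 1 and 2) and 5551937 and 7662159 reads at 1 week, recovered from the deposited values. Levels are in scaled CPM, read counts divided by a scaled library size, and are given in the order on-DMBA replicate 1, on-DMBA replicate 2, 1-week replicate 1, 1-week replicate 2. The label of the sorted cells was met to very different degrees. The 19 general keratinocyte genes listed, among them Krt5, Krt14 and Cdh3, summed to 65732, 1178, 7395 and 5686 scaled CPM, and none was at 0 in any library. The 10 fibroblast genes summed to 177 in on-DMBA replicate 1 and to between 44027 and 53245 in the other libraries, and the 12 myeloid genes to 64.1 and to between 11201 and 26717. The gene of the gated surface protein, Cdh3, stood at 325, 3.23, 42.8 and 30.4. On-DMBA replicate 1 therefore stood apart as the library richest in keratinocyte reads and poorest in those of other cells, and on-DMBA replicate 2 held the fewest keratinocyte reads. In bulk RNA, fewer cells of a type and less RNA per cell cannot be told apart. The part of this in the results below was not tested, and the fits between groups are given with and without the on-DMBA libraries.

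Barrier genes were high in one library on DMBA and low in the other 3. The 54 members together reached 2650 scaled CPM in on-DMBA replicate 1, 52.6 in on-DMBA replicate 2, 199 in 1-week replicate 1 and 134 in 1-week replicate 2. Of the 19 members at 5 scaled CPM or more in any library, 18 were highest in on-DMBA replicate 1, against 47.3% of all 13042 genes chosen the same way. Several of the 19, such as Sprr1b, Rptn and Casp14, reached 5 scaled CPM in that library alone, so the choice partly fixes this count. Of all 54 members, 29 were highest there, against 31.7% of the 21747 genes with a read. Over the 19 genes, the level in that library was 0.199 (Flg2) to 55.2 (Calm4) times the highest of the other libraries, with a median of 12.5. The 1-week libraries lay between the on-DMBA libraries in summed level, so the groups overlapped.

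**Figure D1:**
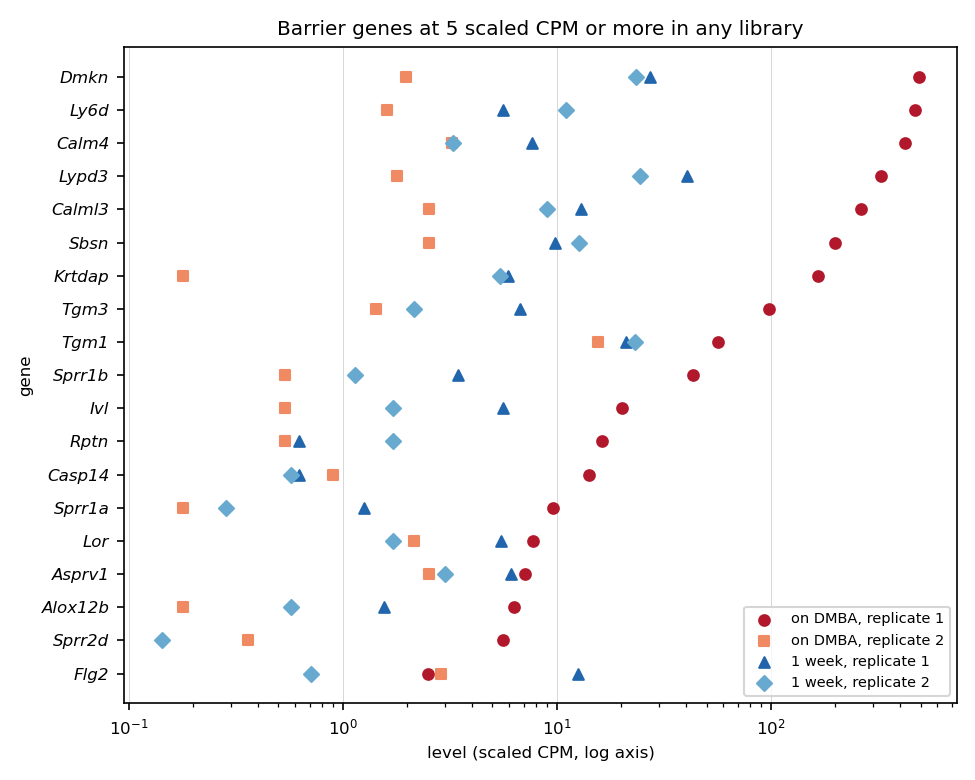
Level in scaled CPM (log axis) of the 19 members at 5 scaled CPM or more in any library, with 1 symbol per library. On-DMBA replicate 1 lies to the right of the other 3 libraries for every gene but Flg2, and Sprr2d in 1-week replicate 1 is at 0 and has no symbol.

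Among the abundant members were 3 genes of secreted proteins of suprabasal keratinocytes. Dmkn, which encodes dermokine, was at 493, 1.97, 27.3 and 23.5 scaled CPM. Sbsn, which encodes suprabasin, was at 200, 2.51, 9.85 and 12.7. Krtdap, which encodes a keratinocyte differentiation-associated peptide, was at 167, 0.18, 5.94 and 5.42, and the on-DMBA replicate 2 value is 1 read. The 3 genes follow each other without another protein-coding gene between them in the RefSeq gene table, and all 3 shared an order, with on-DMBA replicate 1 highest, on-DMBA replicate 2 lowest and the 1-week libraries between. The log2 difference, 1 week minus on DMBA, was -0.43 (SE 2.41) for Dmkn, -1.07 (SE 1.95) for Sbsn and -0.79 (SE 2.53) for Krtdap in limma, each smaller than its standard error. On recovered reads DESeq2 gave larger differences, -3.21 (SE 1.65), -3.12 (SE 1.502) and -3.81 (SE 1.803), and none passed its adjusted threshold.

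Genes of Ly6-type surface proteins were also highest in on-DMBA replicate 1 and lowest in on-DMBA replicate 2. Ly6d was at 469, 1.62, 5.63 and 11.0 scaled CPM, a log2 difference of -1.91 (SE 2.48). Lypd3, a Ly6 family protein anchored at the surface of suprabasal and migrating keratinocytes, was at 327, 1.79, 40.6 and 24.4, a log2 difference of 0.22 (SE 2.28). Of the 7 most abundant members, Lypd3 was the one whose log2 difference was above 0, and this sign turned without 1-week replicate 1 (-0.14) and in the count tests, at -2.22 in edgeR and -2.26 in DESeq2. Cdsn, which encodes the corneodesmosome protein corneodesmosin, was scarce, at 1.90, 1.26, 3.28 and 0.29, and was highest in 1-week replicate 1.

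Of the 20 members tested, a calmodulin-like calcium-binding gene had the largest difference between groups. Calm4, an epidermal calmodulin-like protein, was at 422, 3.23, 7.66 and 3.28 scaled CPM, a log2 difference of -2.84 (SE 2.21). Its neighbour Calml3 was at 263, 2.51, 13.0 and 8.99, a log2 difference of -1.32 (SE 2.07). For both genes on-DMBA replicate 2 lay below the 1-week libraries, so the groups overlapped.

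Compared per length, the secreted, surface and calcium-binding genes also led in on-DMBA replicate 1. In scaled CPM per kilobase of exon, on-DMBA replicate 1 held 631 for Ly6d, 461 for Calm4, 355 for Krtdap, 225 for Dmkn, 198 for Lypd3, 185 for Calml3 and 87.3 for Sbsn. The highest envelope precursor in this library was Sprr1b at 51.9 per kilobase, and Ivl was the highest outside the Sprr genes at 10.5. These 7 genes made up 88.3% of the members' reads in on-DMBA replicate 1 (95% Clopper-Pearson interval 87.9% to 88.7%), 26.3% in on-DMBA replicate 2 (21.3% to 31.7%), 55.4% in 1-week replicate 1 (52.6% to 58.1%) and 66.5% in 1-week replicate 2 (63.4% to 69.5%). Intervals cover counting error only, since reads are not independent molecules. In on-DMBA replicate 2 the highest member per kilobase was Tgm1 at 5.19, against 3.52 for Calm4. The mix of barrier transcripts thus differed between libraries as well as their amount.

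The crosslinking enzymes differed from each other. Tgm3, the transglutaminase of the late envelope, was at 98.4, 1.44, 6.72 and 2.14 scaled CPM, a log2 difference of -1.66 (SE 1.92). Tgm1, the membrane-bound transglutaminase that starts the envelope, was at 56.5, 15.6, 21.1 and 23.2, a log2 difference of -0.42 (SE 0.76). The level of Tgm1 differed 3.62-fold between the on-DMBA libraries, against 68.6-fold for Tgm3, and in on-DMBA replicate 2 it alone took 29.7% of the members' reads (24.5% to 35.3%), against 2.13% in on-DMBA replicate 1 (1.95% to 2.33%).

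The envelope precursors were low in all libraries but on-DMBA replicate 1. Ivl, which encodes the scaffold involucrin, was at 20.2, 0.54, 5.63 and 1.71 scaled CPM. Lor, which encodes loricrin, the bulk protein of the mature envelope, was at 7.72, 2.15, 5.47 and 1.71 and was nearly as high in 1-week replicate 1 as in on-DMBA replicate 1. Cnfn, which encodes cornifelin, did not exceed 0.59. Of the Sprr genes, Sprr1b was at 43.1, 0.54, 3.44 and 1.14, Sprr1a at 9.62, 0.18, 1.25 and 0.29, and Sprr2d at 5.58, 0.36, 0 and 0.14. The log2 difference of Sprr1a was -1.16 (SE 1.43). The other 10 Sprr genes, with Sprr3 and Sprr4 among them, did not exceed 1.31 in any library. The Sprr genes summed to 64.003, 2.87, 7.81 and 3.57. Sprr and Lce genes are families of similar sequence, so reads may have been split between copies.

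The 18 Lce genes were near the limit of detection everywhere and did not follow the other members. Their highest level was 2.03 scaled CPM, 13 reads of Lce1a2 in 1-week replicate 1. They summed to 3.44 (29 reads, 95% Poisson interval 2.31 to 4.95) and 4.67 (26 reads, 3.05 to 6.84) on DMBA and to 13.3 (85 reads, 10.6 to 16.4) and 2.71 (19 reads, 1.63 to 4.23) at 1 week. Of the 18 genes, 15 were highest in 1-week replicate 1, against 28.5% of the 21747 genes with a read. Of the 36 members outside the family, 27 were highest in on-DMBA replicate 1, against 31.7% of those genes. The interval of 1-week replicate 1 lay above the others, but 1-week replicate 2 was the lowest, so the groups did not differ beyond their spread.

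Reads of genes from an unrelated family moved with this. The 1097 olfactory receptor genes of the table, a set chosen after the values were seen, summed to 86.8, 321, 507 and 266 scaled CPM, and were also highest in 1-week replicate 1. Of the 1028 olfactory receptor genes with a read, 424 were highest in that library. Per gene, the mean level was 0.079, 0.29, 0.46 and 0.24 for the olfactory receptors and 0.19, 0.26, 0.74 and 0.15 for the Lce genes. In on-DMBA replicate 2 and 1-week replicate 2 the Lce mean did not exceed that of the olfactory receptors, and in the other libraries it was higher. The part of such reads in the Lce levels was not tested.

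**Figure D2:**
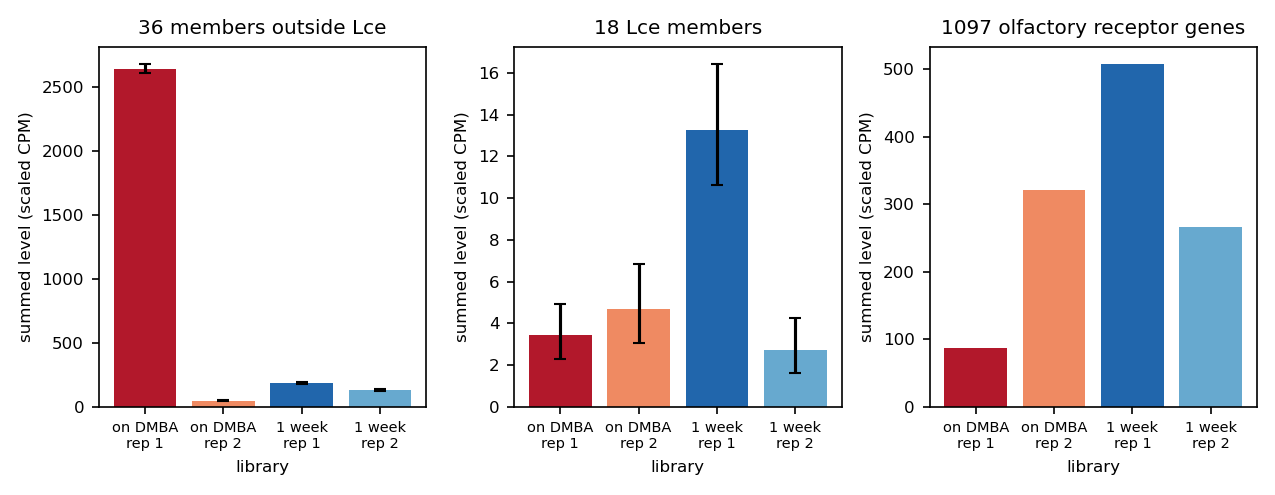
Summed level in scaled CPM per library of the 36 members outside Lce (left), the 18 Lce members (middle) and the 1097 olfactory receptor genes (right), with bars for the 95% Poisson interval of the reads in the first 2 panels. The members outside Lce peak in on-DMBA replicate 1, while the Lce and olfactory receptor sums peak in 1-week replicate 1.

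The keratin-binding and fused S100 proteins split in the same way. Rptn, which encodes repetin, was at 16.3, 0.54, 0.63 and 1.71 scaled CPM, a log2 difference of -1.40 (SE 1.45), and Crnn, which encodes cornulin, was at 3.44, 0.54, 0.31 and 0.29. Flg2, a filaggrin-like gene, was at 2.49, 2.87, 12.5 and 0.71, a log2 difference of 0.32 (SE 1.26), with 80 reads in 1-week replicate 1. It was the single member at 5 scaled CPM or more that was not highest in on-DMBA replicate 1. Without 1-week replicate 1 its log2 difference was -1.39. Hrnr, which encodes hornerin, did not exceed 0.90.

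The proteases and lipid enzymes were scarce. Casp14, a caspase of terminal differentiation that cuts filaggrin, was at 14.1, 0.90, 0.63 and 0.57 scaled CPM, and Alox12b, a lipoxygenase of the barrier lipids, at 6.29, 0.18, 1.56 and 0.57. Asprv1, an aspartic protease that processes profilaggrin, was at 7.12, 2.51, 6.10 and 2.995, a log2 difference of 0.003 (SE 0.83). Klk7, a chymotrypsin-like kallikrein of shedding skin, was at 4.75, 0.18, 1.88 and 2.00, a log2 difference of 0.37 (SE 1.14). Klk5 did not exceed 0.90 and Aloxe3, the partner of Alox12b, did not exceed 1.78. Casp14, Alox12b, Asprv1 and Klk7 were all highest in on-DMBA replicate 1. The groups overlapped for Alox12b, Asprv1 and Klk7, and did not for Casp14, whose values outside on-DMBA replicate 1 rest on 4 or 5 reads each.

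The upstream sequences of the members were set beside these levels, because the Sprr1, Ivl and secreted genes were all highest in on-DMBA replicate 1 and the Lce genes mostly were not. Of the 54 members, 48 matched RefSeq's promoter table by symbol, on the build GRCm38.p6. The study's own build is named as mm9, so these positions are not those of its files. The last 200 bases before the annotated start site are printed for 5 envelope precursors and Krtdap. Lce1a2, the Lce gene with the most reads in a single library, is printed as a contrast. Capitals mark matches to the AP-1 motif TGANTCA and to the TATA box TATAAA, searched on both strands, and no match of one overlaps the other in these windows. AP-1 is the dimer of Jun and Fos proteins, a known regulator of involucrin and Sprr genes.
Sprr1b (chr3:92438780-92438979, minus strand): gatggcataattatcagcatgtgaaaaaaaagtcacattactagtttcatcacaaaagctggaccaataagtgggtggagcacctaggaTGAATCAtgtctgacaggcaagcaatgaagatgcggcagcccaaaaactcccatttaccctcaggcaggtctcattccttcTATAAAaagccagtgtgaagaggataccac
Sprr1a (chr3:92485882-92486081, minus strand): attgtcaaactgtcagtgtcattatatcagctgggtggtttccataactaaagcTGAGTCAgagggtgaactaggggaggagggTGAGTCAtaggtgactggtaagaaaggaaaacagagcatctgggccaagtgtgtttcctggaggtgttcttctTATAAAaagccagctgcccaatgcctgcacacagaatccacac
Sprr2d (chr3:92338940-92339139, plus strand): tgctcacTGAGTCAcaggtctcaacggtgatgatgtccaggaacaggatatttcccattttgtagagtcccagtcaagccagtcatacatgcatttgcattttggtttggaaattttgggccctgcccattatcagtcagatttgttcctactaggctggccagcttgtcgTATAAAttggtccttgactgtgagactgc
Ivl (chr3:92573736-92573935, minus strand): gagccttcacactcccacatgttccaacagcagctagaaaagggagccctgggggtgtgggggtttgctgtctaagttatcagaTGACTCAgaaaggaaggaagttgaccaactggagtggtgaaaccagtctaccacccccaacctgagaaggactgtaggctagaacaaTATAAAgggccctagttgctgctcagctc
Lor (chr3:92083143-92083342, minus strand): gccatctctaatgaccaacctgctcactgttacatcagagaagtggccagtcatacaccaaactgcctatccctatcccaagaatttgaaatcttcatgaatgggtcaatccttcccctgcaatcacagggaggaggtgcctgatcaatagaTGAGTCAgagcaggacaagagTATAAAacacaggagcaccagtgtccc
Krtdap (chr7:30787705-30787904, plus strand): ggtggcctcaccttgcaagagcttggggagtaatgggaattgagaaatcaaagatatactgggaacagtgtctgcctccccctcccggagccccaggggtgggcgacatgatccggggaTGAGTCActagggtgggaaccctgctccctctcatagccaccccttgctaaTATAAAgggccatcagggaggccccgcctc
Lce1a2 (chr3:92670316-92670515, minus strand): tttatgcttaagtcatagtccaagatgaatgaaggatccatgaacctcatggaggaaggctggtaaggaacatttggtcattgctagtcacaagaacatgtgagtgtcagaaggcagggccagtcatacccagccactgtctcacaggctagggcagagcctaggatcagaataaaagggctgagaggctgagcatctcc

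The AP-1 letters were common upstream of these genes and were not found upstream of Lce genes. In the 250 bases before the start site, 17 of 48 member genes held TGANTCA, against 6.75% of all 32851 promoters of that length. These were 9 of 11 Sprr genes, 0 of 17 Lce genes, all 3 of Dmkn, Sbsn and Krtdap, and Ivl, Lor, Rptn, Crnn and Flg2. In the 7 Sprr2 genes matched the motif stood 193 to 198 bases before the start site, with a further match at 182 in Sprr2k, and in Sprr1a it occurred at 146 and 116. TATAAA was held by 20 of the 48 member genes, against 12.4% of all promoters, and by 10 of 11 Sprr genes and 3 of 17 Lce genes. Neighbouring copies share sequence, so these counts are not independent. For every motif searched, a member gene counted if any of its promoters matched, while the share of all promoters counts each promoter singly. Genes with several promoters, such as Dmkn, thus had more chances of a match.

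Among other members highest in on-DMBA replicate 1, Calm4, Lypd3, Tgm3, Tgm1, Casp14, Asprv1 and Klk7 held no AP-1 match in this window. Ly6d and Calml3 had no entry in the promoter table. Conversely, Flg2, Sprr2b, Sprr2e and Sprr2f held an AP-1 match and were not highest in on-DMBA replicate 1. Those Sprr2 genes had at most 3 reads in any library. In all, 6 motifs were searched, chosen after the levels were known. The others were the Grainyhead motif AACNGGTT (1 of 48 member genes against 1.79% of promoters), the C/EBP motif TTGCNNAA (9, against 9.56%), the CACCC box GGGTGG (19, against 28.1%) and CATGTT, letters within the p63 motif (6, against 8.85%). A match describes letters and not binding, and a window without a match says nothing about the factor.

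**Figure D3:**
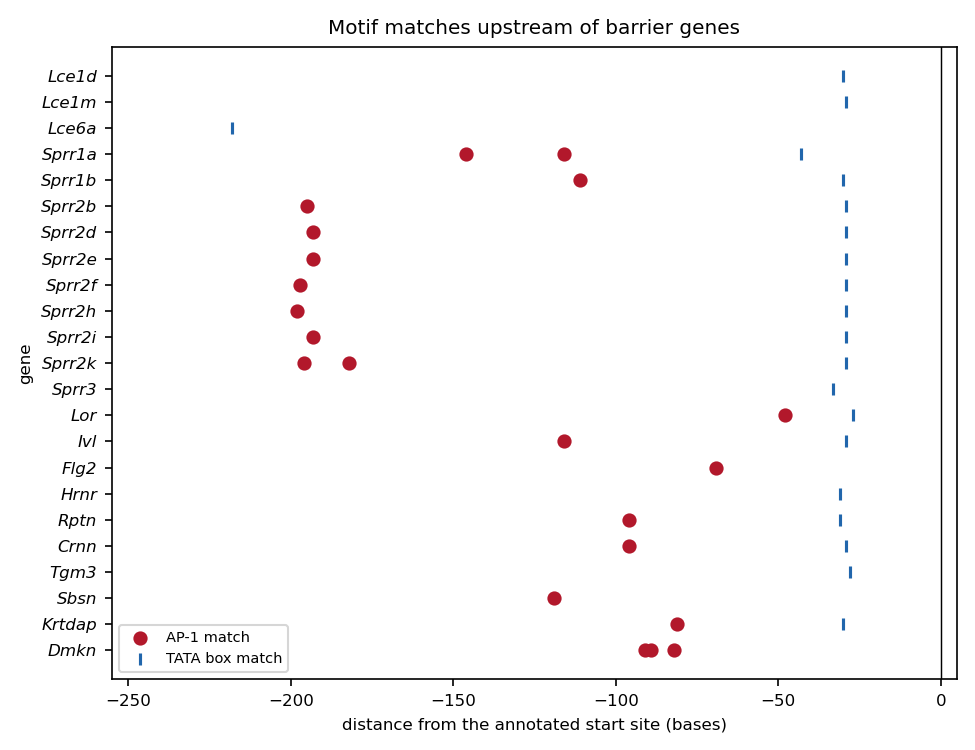
Distance in bases from the annotated start site of each match to TGANTCA (circles) and TATAAA (bars) in the 250 bases upstream, for the member genes with a match to either motif. The Sprr2 matches to AP-1 line up between 193 and 198 bases before the start site except for the second match of Sprr2k, and no Lce gene has one.

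No member passed the test between the groups. Of the 54 members, 20 passed the filter of 1 scaled CPM in at least 2 libraries and were tested with limma on log2(scaled CPM + 0.5), and 34, among them Casp14 and Sprr2d, which are high in on-DMBA replicate 1 alone, were not. Limma with Benjamini-Hochberg adjustment over the 15419 genes tested called 0 members at an adjusted p under 0.05, against 0% of all genes in either direction. The adjusted p was 0.9997 for each of the 20 members. At an unadjusted p under 0.05 there were also 0 members, against 2.28% of all genes higher and 0.195% lower. On recovered reads edgeR called 0 members (0% of genes in either direction) and DESeq2 0 members (0.104% of genes higher and 0.0195% lower). In DESeq2, 7 members were lower and 0 higher at an unadjusted p under 0.05, against 1.15% and 2.5% of genes, led by Calm4 with a log2 difference of -5.19 (SE 1.60, adjusted p = 0.300).

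Of the 20 members tested, 16 had a log2 difference below 0 and 4 above it, with a median of -0.48 against -0.02 over all genes tested. Count tests gave medians of -2.38 (edgeR) and -2.42 (DESeq2), against -0.05 and -0.10 over all genes, -0.92 with quantile normalization (-0.15 over all genes) and -0.18 over all 54 members with no filter (0.05). The groups overlapped for all 20, against 14% of genes wholly higher and 9.14% wholly lower at 1 week. With no filter, 3 of the 54 members were wholly higher and 8 wholly lower, against 15.1% and 7.44% of genes. With 2 libraries a group, a permutation test has too few arrangements to reach 0.05 and none was run. The limma p-values set the difference between groups against the spread within groups of these 4 mice, moderated towards a trend over all genes.

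For the tested members, the on-DMBA libraries differed more from each other than libraries of different groups did. The median absolute log2 difference over these members was 4.16 between the on-DMBA libraries, against 1.02 over all genes tested. Between the 1-week libraries it was 0.96, against 0.51. Between libraries of different groups it ran from 1.13 to 3.46, against 0.42 to 1.11. Of the 20 members, 17 were highest in on-DMBA replicate 1 (41.7% of all genes tested) and 16 were lowest in on-DMBA replicate 2 (23.2%).

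The direction of the comparison turned with the on-DMBA library kept. With on-DMBA replicate 1 left out, the tested members had a median of 1.15, and limma called 3 members higher, Lypd3 (log2 difference 3.80, SE 0.56), Dmkn (3.39, SE 0.56) and Krtdap (3.18, SE 0.95), and 0 lower, against 2.35% of genes higher and 0.999% lower. With on-DMBA replicate 2 left out, their median fell to -3.23, and 12 members were called lower and 0 higher, against 10% of genes lower and 14.3% higher. They were Calm4 (-6.25, SE 0.54), Ly6d (-5.81, SE 0.54), Krtdap, Calml3, Tgm3, Dmkn, Sprr1b, Sbsn, Lypd3, Rptn, Sprr1a and Ivl. Krtdap, Dmkn and Lypd3 were thus called in opposite directions, and 17 of the 20 members were above 0 in the first fit and below 0 in the second. Groups did not overlap for 16 members higher and 0 lower in the first (34.6% and 26.1% of genes), and for 0 higher and 17 lower in the second (40.2% and 43.8%). Leaving out 1-week replicate 1 gave 0 higher and 4 lower (26% and 17.2%), and leaving out 1-week replicate 2 gave 3 and 0 (27.2% and 31.2%), with 0 members called in each (0% of genes). In both fits the lone on-DMBA library was assumed to vary like the 1-week libraries. The standard errors came largely from a variance trend over all genes. Without on-DMBA replicate 2 they were 0.54 for each of Calm4, Ly6d, Calml3 and Sbsn. The calls in these fits therefore do not measure the spread of each gene between mice on DMBA. The summed level of the general keratinocyte genes moved with these calls, at 65732 in on-DMBA replicate 1 and 1178 in on-DMBA replicate 2.

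**Figure D4:**
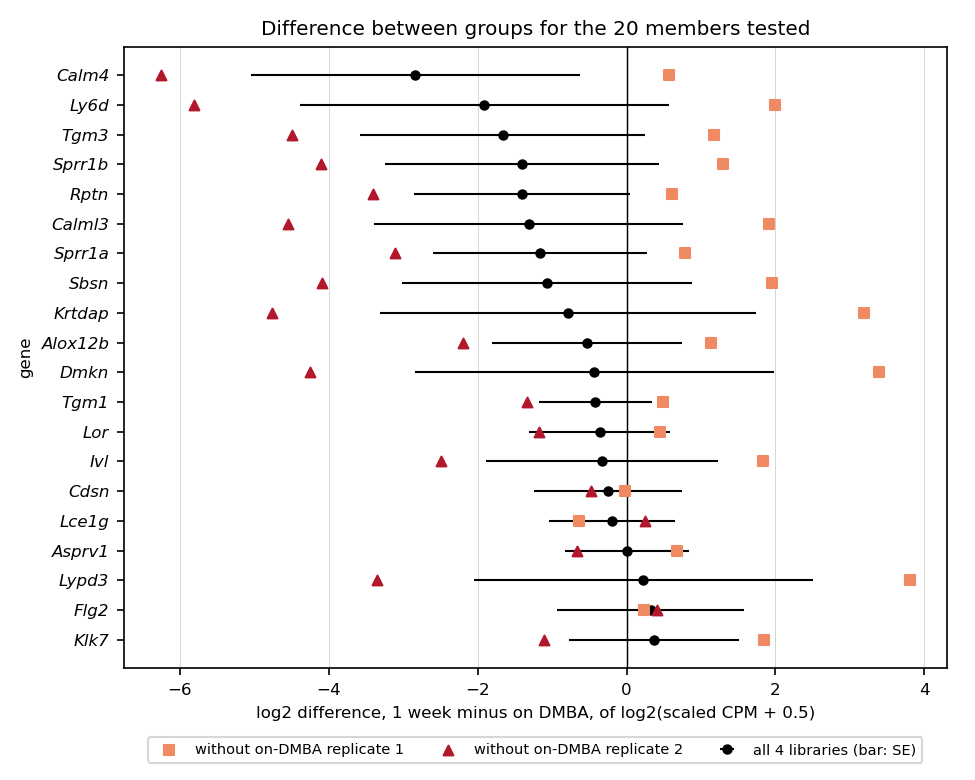
Log2 difference (1 week minus on DMBA) for the 20 members tested, with all 4 libraries (circles, bars of 1 SE) and without each on-DMBA library in turn. For 17 members the squares lie above 0 and the triangles below it, as for Lypd3 at 3.80 and -3.35.

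Set against the keratinocyte genes of the same library, the summed barrier level differed less between libraries, by an amount that depended on the genes chosen. Per 1000 units of the summed level of the 19 general keratinocyte genes, the 54 members summed to 40.3 and 44.6 on DMBA and to 26.9 and 23.6 at 1 week. On this scale the 1-week libraries were both lower, a log2 ratio of the means of -0.75 against -3.02 on the deposited scale. In on-DMBA replicate 2, however, Dst and Itga6 made up 52.5% of the keratinocyte sum, against 2.54% to 15.6% in the other libraries. Per 1000 units of the other 17 genes the members summed to 41.4, 93.9, 29.5 and 27.97, a log2 ratio of -1.24, and per 1000 units of Krt14 alone to 99.4, 260, 75.1 and 69.1, a log2 ratio of -1.32. On all 3 scales both 1-week libraries lay below both on-DMBA libraries. These scales were added after the values were seen, and on-DMBA replicate 2 rests on 293 member reads, 87 of them from Tgm1.

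Of the gene groups, the calmodulin-like genes alone followed that total, at 10.4, 4.87, 2.79 and 2.16 per 1000. In every other gene group the 1-week and on-DMBA values overlapped. The secreted genes were at 13.1, 3.96, 5.83 and 7.32. Ly6d, Lypd3 and Cdsn together were at 12.1, 3.96, 6.70 and 6.27, and the Sprr genes at 0.97, 2.44, 1.06 and 0.63. Calm4 was at 6.43, 2.74, 1.04 and 0.58 per 1000, Calml3 at 4.01, 2.13, 1.75 and 1.58, and Tgm3 at 1.498, 1.22, 0.91 and 0.38. For these 3 of the 20 members tested, each 1-week value lay under each on-DMBA value, against 0.564% of all genes tested, and Klk7 was the 1 member higher, against 1.15%. Without Dst and Itga6 in the sum, 6 members were lower and 0 higher, against 0.642% and 0.37% of genes. On-DMBA replicate 2 contributed 18, 14 and 8 reads of Calm4, Calml3 and Tgm3. Scaling by the geometric mean of the same 19 genes left 6 members lower and 0 higher without overlap, against 1.17% and 0.201% of genes. The 6 were Calm4, Calml3, Tgm3, Ly6d, Sbsn and Sprr1b. Limma called 0 members on that scale (0% of genes in either direction). There, 0 of the 15419 genes tested reached even an unadjusted p under 0.05 in limma. That fit thus cannot tell members that differ from members that do not.

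Lypd3 kept close to the keratinocyte genes in the libraries that held most of them. It stood at 4.97 per 1000 in on-DMBA replicate 1 and at 5.50 and 4.29 at 1 week, and at 1.52 in on-DMBA replicate 2. Ly6d, of the same family, stood at 7.14, 1.37, 0.76 and 1.93. Tgm1 stood at 0.86, 13.3, 2.85 and 4.09. This ratio was highest in on-DMBA replicate 2, where the keratinocyte sum that divides it was smallest. On the deposited scale Tgm1 was lowest in that library, at 15.6 scaled CPM.

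**Figure D5:**
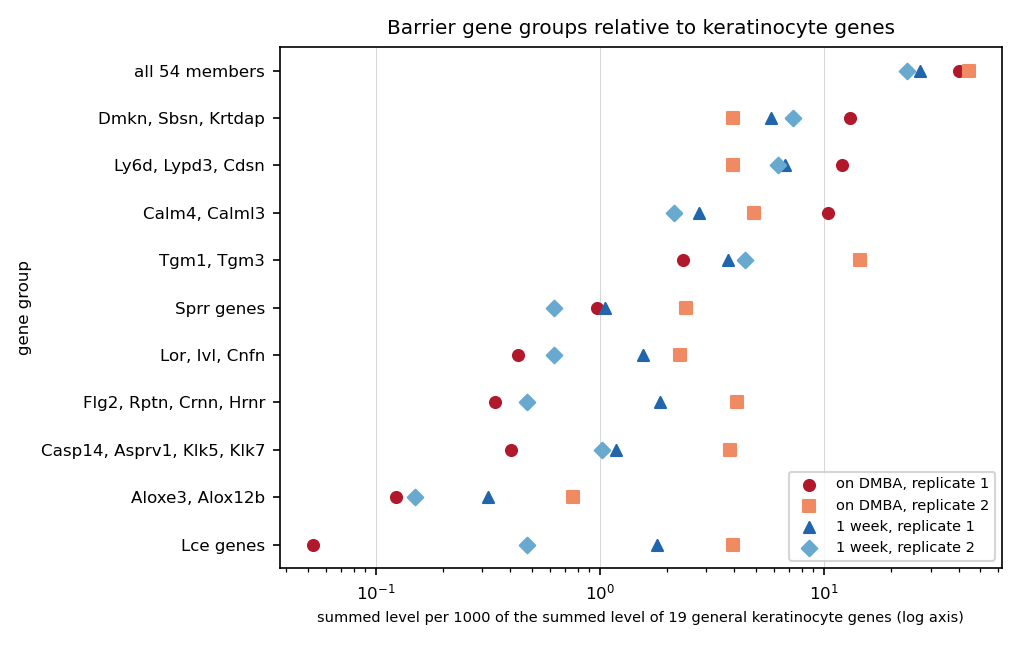
Summed level of each barrier gene group per 1000 units of the summed level of 19 general keratinocyte genes (log axis), with 1 symbol per library. All members together span 23.6 to 44.6, while the Lce genes span 0.052 to 3.96, the highest value resting on 26 reads.

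With all 4 libraries, the other genes of the differentiation pathway also gave no call. Beside the members, limma called 0 of 16 tested spinous genes, 0 of 12 further envelope genes, 0 of 21 barrier lipid genes, 0 of 19 genes of proteolysis and shedding and 0 of 34 transcription factors. Their median log2 differences were -1.08, -0.65, -0.24, -0.84 and -0.42, against -0.02 over all genes. As for the members, these turned without on-DMBA replicate 1, to 2.03, 0.62, 0.40, 0.64 and 0.58, against 0.04 over all genes. Without on-DMBA replicate 2 they were -4.82, -1.88, -0.97, -2.13 and -1.35, against -0.06 over all genes. Spink5, which encodes the inhibitor of the epidermal kallikreins, was at 334, 2.87, 4.53 and 2.57 scaled CPM, high in on-DMBA replicate 1 alone. Prdm1, which encodes a transcriptional repressor of late keratinocytes that lymphocytes and other cells also use, was at 3.21, 23.0, 66.9 and 71.2, lowest in on-DMBA replicate 1. Ugcg, which encodes glucosylceramide synthase, was at 58.5, 226, 145 and 309, lowest in on-DMBA replicate 1.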

How the data were processed

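The authors deposited 1 table with a normalised signal per gene symbol and library, called CPM. Its columns sum to between 867697 and 1149287, so the deposited signal is named scaled CPM here. Per the submitters' processing notes, edgeR 3.2.3, HTSeq, TopHat2 2.1, CASAVA 1.8.2 and the build mm9 were used, with no role or order stated. The annotation and strand setting are not given. Whole reads were recovered from each library's smallest step (100% of values whole within 0.01 reads). A floor of 3 reads is 0.36 to 0.54 scaled CPM.

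Genes reaching 1 scaled CPM in 2 or more libraries were fitted in R 4.3.3 with limma 3.58.1, using eBayes with its trend option, on log2(scaled CPM + 0.5). Tests were two-sided and adjusted by Benjamini-Hochberg. The log2 scale understates changes of low genes. EdgeR 4.0.16 and DESeq2 1.42.0 were run on recovered reads. The scripts were tested on simulated data. Exon lengths are unions of GENCODE exons. Replicates are different mice. The members, gene lists and tests were chosen with earlier results of these data known. Members at 5 scaled CPM or more were to be named with every value; tests were to be given for the 8 most abundant and the 4 of smallest p in each direction.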

Additional observations from a re-analysis of the deposited data

How the results depend on the processing

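Pseudocounts of 0.1 and 1, filters of 5 scaled CPM and none, median ratio and quantile scaling, scaling to keratinocyte genes, eBayes without the trend, a replicate block, edgeR, DESeq2 and leaving out each library were tried. The count of members called was 0 in each except 0 to 12 when 1 library was left out. The replicate numbers mark different mice, so the main fit had no block. The deviations of same-numbered libraries correlated at 0.015. With 2 libraries a group this is a single value and cannot exclude a shared batch. With the block 0 members were called and the median stayed at -0.48. Calls over all genes went from 0 and 0 to 285 higher and 3 lower.

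Leaving out 1 library moved the median of the tested members between -3.23 and 1.15, and the log2 ratio of the summed level between -3.99 and 1.66. Members without overlap higher ran from 0 to 16 and lower from 0 to 17. In the fits with 16 higher and 17 lower, 34.6% and 43.8% of all genes did the same. With no filter 3 of 54 members were higher and 8 lower without overlap (15.1% and 7.44% of genes). With quantile normalization 0 were higher and 1 of 20 lower (11.6% and 17.4%). Scaling to keratinocyte genes left 0 higher and 6 lower (0.201% and 1.17%).

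Over the fits that left out 1 library the log2 difference ran from -4.25 to 3.39 for Dmkn, -5.81 to 1.99 for Ly6d, -6.25 to 0.57 for Calm4, -3.35 to 3.80 for Lypd3, -4.54 to 1.91 for Calml3, -4.10 to 1.96 for Sbsn, -4.76 to 3.18 for Krtdap, -1.33 to 0.49 for Tgm1, -3.41 to 0.60 for Rptn, -4.50 to 1.17 for Tgm3, -3.11 to 0.79 for Sprr1a, -1.11 to 1.84 for Klk7, -1.39 to 2.03 for Flg2 and -0.67 to 0.67 for Asprv1. The sign also turned for Lypd3 in edgeR (-2.22) and DESeq2 (-2.26), for Klk7 with quantile normalization (-0.23), edgeR (-0.28) and DESeq2 (-0.31), and for Asprv1, which lies near 0, with a pseudocount of 1 (-0.00488), median ratio scaling (-0.0461), quantile normalization (-0.35), scaling to keratinocyte genes (-0.0513) and DESeq2 (-0.0384). The cause was not tested. With 2 libraries a group, members under about 3 reads cannot be compared.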
